A study of Bos taurus with 24 samples.

Results

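The 100 gene IDs with the steadiest expression among moderately to highly expressed genes of the calf adrenal gland were described across 24 libraries. They are Ensembl bovine gene IDs, chosen by their own measured values. Counts were scaled to CPM, the count times 1000000 over the library total, and 4670 of 27570 IDs had a mean CPM of at least 50. The 100 highest means were dropped, as were 30 IDs whose birth and weaning ranges did not overlap, 19 of them higher at weaning. The remaining 4540 IDs were ranked by the coefficient of variation (CV, the SD over the 24 libraries divided by the mean), and the lowest 100, 2.20% of those ranked, were taken. Their low CV is therefore not a finding, and any difference between groups of these libraries was held small by the choice itself.

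The tissue came from female calves in 4 groups of 6. Before birth they had been either heat-stressed (IUHS) or cooled (IUCL), and calves of both kinds were sampled at birth (day 0) and, other animals, at weaning (day 63). Calves sampled at birth are called newborns below and those sampled at weaning weaned calves. The study asked how heat exposure before birth programs the adrenal gland. The labels give no further treatment, breed or genotype, and they do not separate cortex from medulla.

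The adrenal cortex makes steroid hormones from cholesterol, and the medulla makes catecholamines. Both are known to be remodelled around birth in mammals, so a gene that stays level in this organ at both ages is a candidate reference for measuring others. Genes of steady expression in most tissues are commonly those of basic cell upkeep, such as protein turnover, RNA processing, membrane traffic and energy supply. No names accompany the IDs in the deposited tables, so the roles of the 100 IDs, the levels of classical reference genes and the markers of cortex and medulla are not reported. Bulk libraries cannot tell fewer cells of a type from less RNA per cell, for the steady IDs as for others.

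Library totals ranged from 12261651 to 19012206 counts, and every one of the 100 IDs was deeply counted. The lowest count of any of them in any library was 616, and the median over IDs of the lowest count was 1698. Of the libraries, IUHS calf 28 at weaning and IUHS calf 5 at birth most often held the highest or the lowest value of a ranked ID, with 10.7% and 10.1% of all such extremes over the 4540 IDs. For the 100 steady IDs the same libraries held 9% and 6%. Without IUHS calf 28, 81 of the 100 IDs were chosen again and their median CV was 7.41%. Without IUHS calf 5 at birth, 87 were chosen again and the median CV was 7.59%.

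The CV of the 100 IDs ran from 3.95% to 8.17%, with a median of 7.58%. The 4540 ranked IDs had a median of 16.9% and a highest value of 145%. Within the 100, most values lay close to the limit: 2 IDs were under 5%, 7 under 6% and 21 under 7%. The limit fell in a dense part of the ranking. The last ID inside, ENSBTAG00000002415, had a CV of 8.168%, and the first outside, ENSBTAG00000005384, had 8.170%. The ranking therefore separates the few steadiest IDs from the rest more clearly than it separates the members near the limit from their neighbours.

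**Figure D1:**
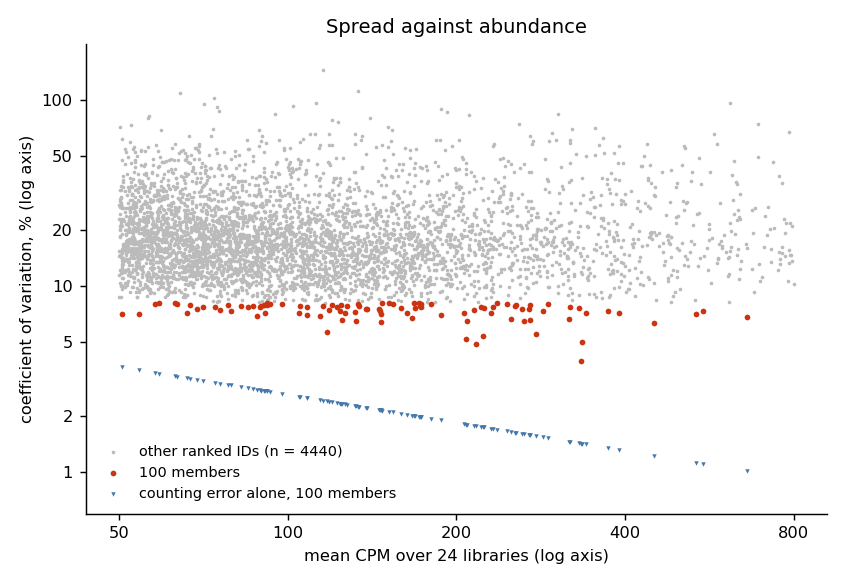
Each point is a gene ID, with its mean CPM over the 24 libraries on the x axis and its CV in percent on the y axis, both on log scales; red points are the 100 IDs, grey points the other ranked IDs, and blue triangles the CV that counting error alone would give for the 100. The red points lie between 3.95% and 8.17%, below the median of 16.9% over all ranked IDs and above the triangles, which run from 1.01% to 3.66%.

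The steadiest ID was ENSBTAG00000003530, with a mean of 334 ± 13.2 CPM (SD, n = 24) and a CV of 3.95%. In IUCL calves at birth its lowest, median and highest values were 311, 326 and 351 CPM, and in IUHS calves at birth 331, 344 and 360 CPM. At weaning they were 319.9, 333 and 338 CPM in IUCL calves and 305, 333 and 340 CPM in IUHS calves. All 4 groups overlapped, and the highest library was 1.18 times the lowest. Of its variance 28.8% lay between the groups, with the highest mean in heat-stressed newborns (345 ± 11.6 CPM, SD, n = 6).

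ENSBTAG00000019237 was next, with 217 ± 10.6 CPM (SD, n = 24) and a CV of 4.89%. Its group means were 216 ± 12.1 CPM in cooled newborns, 217 ± 10.04 CPM in heat-stressed newborns, 216 ± 12.8 CPM in cooled weaned calves and 219 ± 9.96 CPM in heat-stressed weaned calves (n = 6 each). The group means lay closer together than the calves within any group, and 1.48% of the variance of this ID lay between the groups.

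ENSBTAG00000010988 came after these, at 336 ± 16.9 CPM (SD, n = 24) with a CV of 5.02%. Its lowest library, at 307 CPM, was an IUHS calf at birth and its highest, at 369 CPM, an IUCL calf at birth, so the whole range was spanned within 1 age.

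**Figure D2:**
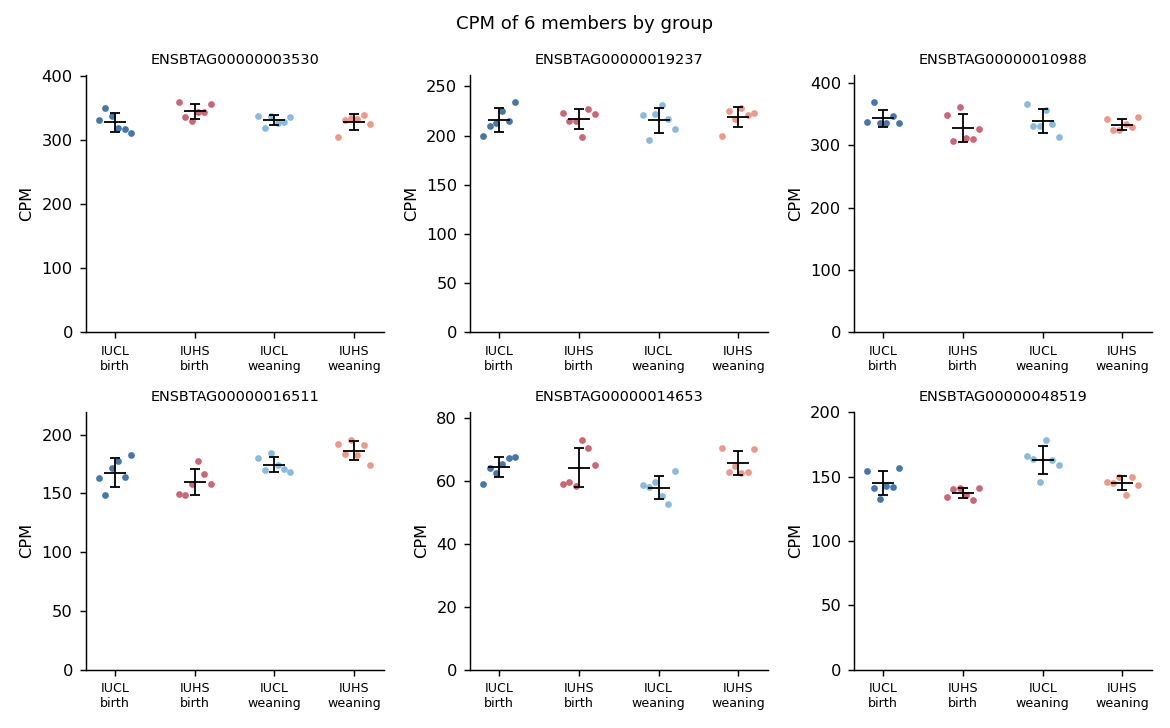
Each panel shows 1 ID, with CPM on the y axis from 0 and the 4 groups on the x axis; points are single calves, and black bars give the mean and SD of 6 calves. The 3 IDs of lowest CV (top row) have ranges that overlap between all 4 groups. The bottom row holds the ID higher at weaning in heat-stressed calves, and the ID of smallest p in each direction between treatments. These 3 show offsets between groups whose ranges overlap, with 1 exception. In the last of them the heat-stressed newborns, up to 141 CPM, lie wholly below the cooled weaned calves, from 146 CPM.

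Among the ranked IDs, whose means ran from 50.02 to 800.5 CPM, steady IDs lay at low and at high abundance, more often at the higher levels. The 100 highest means, from 801.6 CPM, were not ranked, and 0 of them had a CV within the limit. When the ranked IDs were divided by mean CPM into 4 sets of 1135, the lowest set held 8 of the 100 IDs, the next 17, the third 30 and the highest 45. The median CV of all ranked IDs changed little over the same sets, with 17.95%, 16.8%, 16.1% and 16.8%. The most abundant of the 100 was ENSBTAG00000016846, at 662 ± 45.3 CPM with 569.9 CPM in the lowest and 752.5 CPM in the highest library. The least abundant was ENSBTAG00000020154, at 50.6 ± 3.60 CPM with 45.3 CPM in the lowest and 61.4 CPM in the highest library (SD, n = 24 each).

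Counting error made up a small part of the spread. From the counts alone, a CV between 1.01% and 3.66% is expected for the 100 IDs, with a median of 2.15%. It accounted for a median of 8.68% of their variance, from 2.20% to 26.6%, against a median of 2.22% over all ranked IDs. After it was removed, the CV between libraries had a median of 7.25%, against 16.7% for all ranked IDs. For ENSBTAG00000003530 the counting part was 1.43% of a CV of 3.95%. When all libraries were thinned to the smallest total, the median CV was 7.64% and 91 of the 100 IDs were chosen again.

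The fold range of a steady ID was narrow, which its low CV over the same libraries built in. The highest library was between 1.18 and 1.48 times the lowest, with a median of 1.34, and for 8 IDs it was under 1.25 times. All 100 IDs were under 1.5 times, as were 9.96% of the 4540 ranked IDs, where the median was 1.95 and the largest value 268.

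The spread was similar within each group of calves. The median CV of the 100 IDs over the 6 calves of a group was 7.28% for cooled newborns, 7.02% for heat-stressed newborns, 6.81% for cooled weaned calves and 6.44% for heat-stressed weaned calves. All ranked IDs had medians of 14.1%, 16.7%, 13.3% and 15% in the same groups. These within-group values rest on calves that the choice had used.

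The share of a steady ID's variance that lay between the 4 groups had a median of 15.5%, from 1.22% to 63.9%, and over all ranked IDs a median of 19.8%. With 4 groups of 6 such a share averages 13.04% where the groups do not differ at all. For 3 of the 100 IDs the groups held more than 50% of the variance, as they did for 9.38% of all ranked IDs. The largest share belonged to ENSBTAG00000048519. It measured 145 ± 9.12 CPM in cooled newborns, 137 ± 3.92 CPM in heat-stressed newborns, 163 ± 10.6 CPM in cooled weaned calves and 145 ± 5.22 CPM in heat-stressed weaned calves (n = 6 each, SD). The cooled weaned calves stood highest, with 146 to 179 CPM. They lay wholly above the heat-stressed newborns, at 132 to 141 CPM, and overlapped with the cooled newborns, at 133 to 157 CPM, and with the heat-stressed weaned calves, at 136 to 149.8 CPM. The smallest share, 1.22%, belonged to ENSBTAG00000030584, with group means from 88.4 ± 11.3 CPM (cooled) to 90.4 ± 8.03 CPM (heat-stressed), both at weaning (n = 6 each, SD).

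Heat stress was then compared with cooling in a fit over all 15693 genes that passed the filter on low counts, which all 100 IDs passed. The library scaling of this fit was the trimmed mean of M-values (TMM), and p-values were from edgeR's quasi-likelihood test with Benjamini-Hochberg adjustment. At birth 0 of the 100 IDs were called at an adjusted p under 0.05, where 0% of all genes were, and 1 was at an unadjusted p under 0.05, against 3.93% of all genes. At weaning 0 were called, against 0%, and 2 were at an unadjusted p under 0.05, against 6.99%. Averaged over both ages 0 were called, against 0%, and 2 were at an unadjusted p under 0.05, against 4.61%. DESeq2 and limma-voom also called 0 of the 100 IDs in each of these comparisons. Because the IDs were chosen for a low spread over the same libraries, nothing is read from these counts.

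The sizes of the treatment differences were small. At birth the median absolute log2 difference of the 100 IDs was 0.05, against 0.12 over all genes, and the largest was 0.20. At weaning the values were 0.05, 0.15 and 0.19. The difference's 95% interval held no change beyond 1.25-fold, up or down, for 98 of the 100 IDs at birth and 96 at weaning. The same held for 16.4% and 12.4% of all genes. The choice for a low spread over these libraries kept the differences small and the intervals narrow, so nothing is read from these sizes. At birth more of the 100 IDs were lower than higher in IUHS calves under 3 scalings, in numbers that differed. These were 81 with TMM (median log2 difference -0.05), 82 with median-ratio (RLE) size factors (median -0.05) and 67 with library totals (median -0.02). Scaled to the 100 IDs themselves, which centres them by construction, 50 were lower. Over all genes, 51.4% were higher in IUHS calves with TMM. The mean TMM factor was 0.995 in cooled and 1.02 in heat-stressed newborns. A change of scaling moves all 100 IDs of a library together, so nothing is read from these counts of direction.

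Among the 100 IDs, ENSBTAG00000014653 had the smallest p of those higher in heat-stressed calves. At weaning it ranged from 62.3 to 70.5 CPM with a median of 63.7 CPM in IUHS calves, and from 52.5 to 63.2 CPM with a median of 58.2 CPM in IUCL calves. The ranges overlapped only at their ends, and the log2 difference of 0.19 ± 0.08 (SE) did not pass the threshold (edgeR adjusted p = 0.665). Among newborns it averaged 64.2 ± 6.33 CPM after heat stress and 64.2 ± 3.14 CPM after cooling (n = 6 each, SD). On the lower side it was ENSBTAG00000048519, described above, with a log2 difference of -0.13 ± 0.05 averaged over ages (edgeR adjusted p = 0.944).

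The test of whether the treatment difference changed with age called 0 of the 100 IDs, against 0% of all genes. At an unadjusted p under 0.05 there were 0 of the 100 IDs in edgeR with TMM, against 5.56% of all genes. Limma-voom gave 0, against 800 of 15693 genes, and DESeq2 gave 2, against 966 of 15689. With library totals edgeR gave 3, against 815 of 15693, and scaled to the 100 IDs 1, against 789. The interval of this difference lay within 1.25-fold for 42 of the 100 IDs and within 1.5-fold for all 100. For the others the interval reached beyond 1.25-fold. These intervals too were kept narrow by the choice.

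From birth to weaning, 0 of the 100 IDs were called in cooled calves, where 12% of all genes were, and 1 was called in heat-stressed calves, where 6.31% of all genes were. At an unadjusted p under 0.05 there were 3 and 5 of the 100 IDs, against 26.6% and 20.4% of all genes. The choice of a low CV over both ages built in these low shares. Its step on overlapping ages took out no ID within the CV limit. The median absolute log2 change was 0.07 in cooled and 0.06 in heat-stressed calves, against 0.25 and 0.21 over all genes.

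The called ID was ENSBTAG00000016511, 69th in the ranking. In heat-stressed calves it had a lowest, median and highest value of 149, 158 and 178 CPM at birth and of 174, 187 and 196 CPM at weaning. Its levels rose by a log2 of 0.25 ± 0.07 (SE, edgeR adjusted p = 0.0425), although the highest newborn exceeded the lowest weaned calf. In cooled calves the means were 168 ± 12.2 CPM at birth and 175 ± 6.38 CPM at weaning (SD, n = 6 each), a log2 difference of 0.05 ± 0.07 (edgeR adjusted p = 0.689), and the difference between the treatments did not pass the threshold (log2 0.20 ± 0.10, edgeR adjusted p = 0.894). The call was made in 5 of 19 alternative fits, DESeq2 (adjusted p = 0.00884) and limma-voom (adjusted p = 0.0443) among them. It was lost with RLE size factors, with the 100 IDs as the reference, with no low-count filter and with only the compared groups fitted. It was also lost with any single library of heat-stressed calves left out except calf 5 at birth and calf 23 at weaning, with adjusted p up to 0.120 over all alternatives. The log2 difference itself stayed between 0.21 and 0.28 in all 19.

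Of the IDs lower at weaning, ENSBTAG00000021759 had the smallest p. It measured 97.9 ± 6.86 CPM at birth and 86.4 ± 4.49 CPM at weaning in cooled calves (SD, n = 6 each), a log2 difference of -0.18 ± 0.08 that did not pass the threshold (edgeR adjusted p = 0.115). In heat-stressed calves the means were 94.8 ± 2.80 CPM and 87.5 ± 7.27 CPM.

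Summed over the 100 IDs, the share of all counts was nearly the same in every library. The choice of low CVs over these libraries built in this near-constant sum, so nothing is read from it. It ranged from 1.74% to 1.88%, with means of 1.81% ± 0.0292 in cooled newborns, 1.79% ± 0.0278 in heat-stressed newborns, 1.81% ± 0.0446 in cooled weaned calves and 1.81% ± 0.0436 in heat-stressed weaned calves (n = 6 each, SD). The median ID deviated from its own mean by between -0.05 (IUHS calf 2 at birth) and 0.05 (IUCL calf 13 at weaning) on the log2 scale. The SD of the 100 deviations within a library ran from 0.07 in IUHS calf 23 at weaning to 0.13 in IUHS calf 4 at birth.

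The extremes were spread over the libraries. Over the 100 IDs, the highest value fell on cooled newborns 31 times, heat-stressed newborns 14 times, cooled weaned calves 23 times and heat-stressed weaned calves 32 times. The lowest value fell 27, 28, 25 and 20 times in the same groups. IUHS calf 28 at weaning held 18 of these extremes, the most of any library, 10 highest and 8 lowest. IUCL calf 1 at birth held 1, the fewest.

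**Figure D3:**
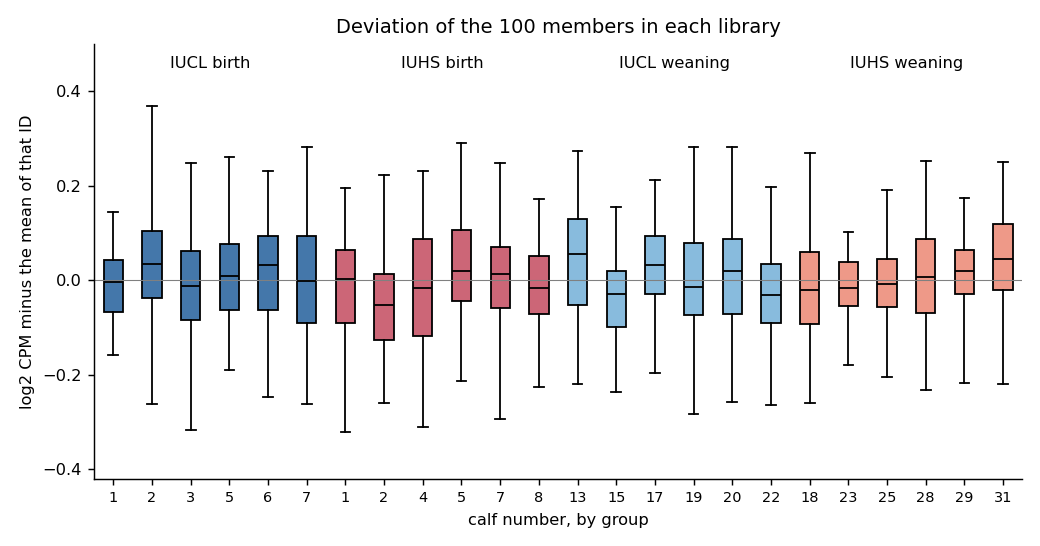
For each library, named by calf number and coloured by group, the box gives the quartiles and median over the 100 IDs of the log2 CPM minus that ID's mean over all libraries, and the whiskers run to the lowest and highest ID. Medians lie between -0.05 and 0.05; whiskers differ more between libraries than medians do.

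The correlation between a pair of steady IDs over the 24 libraries had a median of 0.05 (95% of the 4950 pairs between -0.46 and 0.51), where pairs of ranked IDs had a median of 0.01, and the first principal component held 14.4% of their variance. This describes libraries that share scaling and depth and carries no test. The log2 ratio of a pair, which needs no scaling of libraries, had a median SD of 0.15 over the 24 libraries, from 0.07 to 0.21. Pairs of ranked IDs had a median of 0.38. As both IDs of a pair were chosen for a low CV, a low SD of their ratio was built in. The steadiest pair, ENSBTAG00000019526 and ENSBTAG00000000806 (taken after the values were seen), had an SD of 0.07.

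Which IDs counted as steady depended on how libraries were scaled. With TMM, which sets the bulk of genes equal between libraries instead of the totals, the factors ranged from 0.917 (IUHS calf 31 at weaning) to 1.09 (IUHS calf 5 at birth). The median CV of the 100 IDs was then 8.89%, and 42 of them were among the 100 lowest. A lower CV than with library totals was found for 7 of the 100 IDs, against 40.7% of all ranked IDs. The IDs were chosen for their low CV with library totals, so nothing is read from that count. ENSBTAG00000001700 rose most in CV, from 8.07% to 11.9%, and ENSBTAG00000010290 fell most, from 7.71% to 6.14%. ENSBTAG00000003530 had the lowest CV of the 100 with library totals, 3.95%, and with TMM, 5.95%. With RLE it had 6.22% and came after ENSBTAG00000003168, at 5.97%, and ENSBTAG00000010290, at 6.02% (the former named after its value was seen). Factors taken from the 100 IDs themselves spanned only 0.966 to 1.04, a narrow range that their choice on library totals had fixed.

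**Figure D4:**
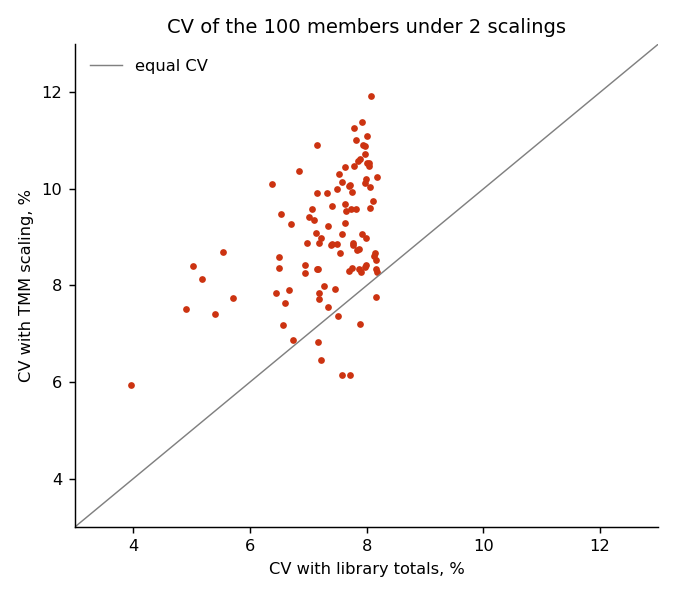
Each point is 1 of the 100 IDs, with its CV under library totals on the x axis and under TMM scaling on the y axis, both in percent, and the grey line marks equal values. All but 7 points lie above the line, and the ID at the lower left, with 3.95% and 5.95%, is the lowest on both axes.

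The other steps of the rule were changed in turn. With a mean CPM minimum of 20 in place of 50, 91 of the 100 IDs were chosen again, and with 100 in place of 50, 74 were. The higher minimum removes IDs and adds no competitor, so the 74 are simply those with a mean of at least 100 CPM. Keeping the 100 highest means, or the IDs with separate age ranges, added no ID within the CV limit, so all 100 were kept. With the SD of log2 values 95 were kept, and with the CV beyond counting error 94. The median absolute deviation over the median, which gives no weight to single extreme libraries, kept 45, about as few as TMM. Without each library in turn, 70 IDs were chosen all 24 times. Across all of these alternatives 19 IDs were always kept, 9 of them among the 10 steadiest. An ID with a mean under 100 CPM could not be among the 19, as the higher minimum left it out.

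A measure that the choice had not used was obtained by repeating it in 12 libraries and reading the CV in the other 12. IDs chosen in the birth libraries had a median CV of 6.28% there and of 9.08% at weaning, where all ranked IDs had 14.99%. Of the 98 that were ranked at weaning, 48 lay in the lowest 10% and 93 in the lowest 50% of CV. In the other direction, IDs chosen at weaning had a median of 5.84% there and of 10.5% at birth, where all ranked IDs had 15.7%, and 36 of 100 lay in the lowest 10%.

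Between treatments, IDs chosen in IUCL calves had a median CV of 6.47% there and of 10.1% in IUHS calves, where all ranked IDs had 17.6%, and 48 of 100 lay in the lowest 10%. IDs chosen in IUHS calves had 6.51% there and 9.23% in IUCL calves, where all ranked IDs had 15.9%, and 53 of 99 lay in the lowest 10%. The calves of the 2 sets differ, so the CV in the unused libraries is free of the choice. In each direction it lay above the CV of the choosing libraries and below that of all ranked IDs. The exact list carried over less well: 15 IDs were among the 100 lowest at both ages, and 18 in both treatments. Of the 100 IDs described here, 39 were chosen by the birth, 33 by the weaning, 43 by the IUCL and 58 by the IUHS libraries alone. These last counts are not free of the choice, as the same libraries took part in choosing the 100 IDs.

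**Figure D5:**
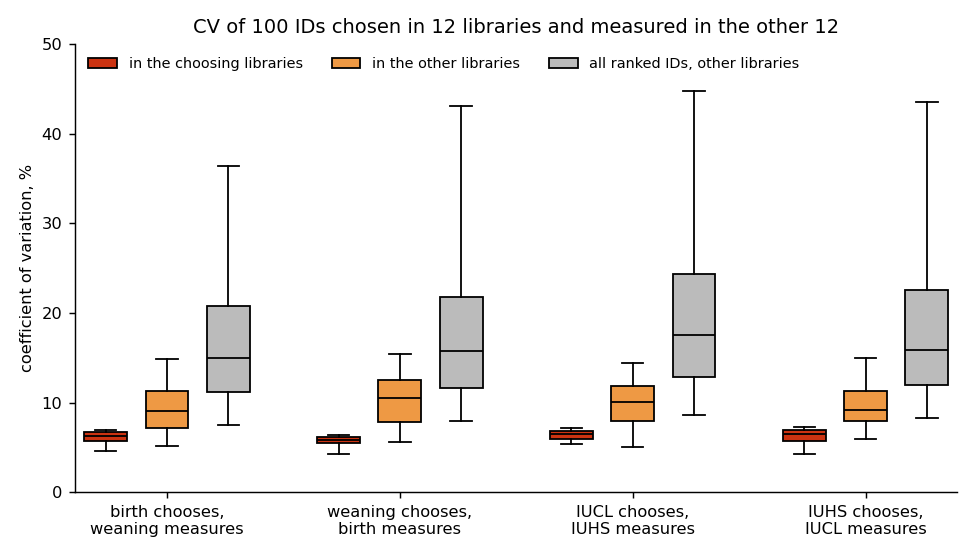
For each of 4 directions, boxes give the CV in percent of 100 IDs in the 12 libraries that chose them (red), of the same IDs in the other 12 libraries (orange) and of all IDs ranked in those other libraries (grey); boxes show quartiles and median, whiskers the 5th and 95th percentiles. The orange medians, 9.08% to 10.5%, lie between the red ones, 5.84% to 6.51%, and the grey ones, 14.99% to 17.6%.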

How the data were processed

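Adrenal RNA of 24 calves was sequenced, 6 per group. The authors deposited raw read counts for 27570 Ensembl gene IDs, 1 table per calf. Per the submitters' processing notes, the build was ARS-UCD1.2 and the tools were HTSeq, HISAT2, Trim Galore 0.4.4 and FastQC 0.11.7. For HTSeq and HISAT2 the version, and for the counting the annotation release and strand setting, are not given in the sources used here, so reads of overlapping or near-identical genes may be split between IDs. A table of 37063 bovine genes held an Ensembl ID for 0 of them, so the 28 gene lists were not run and genes are given by ID.

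CPM were counts times 1000000 over the library total. The counting part of a CV was the root of the mean Poisson variance, and covers counting error only. Genes were tested with edgeR 4.0.16 (R 4.3.3; filterByExpr with minimum count 10 and total 15; TMM; 1 robust quasi-likelihood model over 4 group means), two-sided, with Benjamini-Hochberg adjustment over 15693 genes. SE and 95% intervals came from this model. DESeq2 1.42.0, limma 3.58.1, other scalings, no filter and leaving out libraries were alternatives. The scripts were tested on simulated data. Python 3.11.15, numpy 2.4.6, pandas 2.3.3 and matplotlib 3.10.9 were used.

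The IDs, lists and tests were chosen with earlier results of these data known. Named IDs are the 3 lowest CVs, the highest and lowest mean, the last inside and first outside the limit, the smallest p in each direction over the age and over the treatment comparisons, the largest and smallest share of variance between groups, and the CVs most raised and lowered by TMM. Where nothing says how libraries were replicated beyond 1 calf each, p-values measure the spread between these libraries.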

Additional observations from a re-analysis of the deposited data

Results flagged for a closer look

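Over 68 groups of 6 values (the summed share, median deviation and spread of the 100 IDs, and the CPM of each named ID), 1 value stood apart by Dixon's test, where 3.4 are expected since chance sets apart about 1 in 20 groups. ENSBTAG00000010988 measured 369 CPM in IUCL calf 2 at birth, where the other 5 calves of the group lay between 335 and 347 CPM.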

How the results depend on the processing

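The median CV of the 100 IDs, 7.58% with library totals, was 8.89% with TMM and 9.02% with median-ratio (RLE) size factors, and from 7.41% to 7.68% without each library in turn. Of the 100 IDs, 42 were kept with TMM, 40 with RLE and 45 with the median absolute deviation, and from 81 to 95 without each library. The cause was not tested. The 3 treatment comparisons and the interaction gave 0 called IDs under every alternative run, from 0 to 0 without each library. For age in cooled calves the count was 0, and from 0 to 1 without each library: 1 without IUCL calf 17 at weaning (ENSBTAG00000021232, log2 -0.23, adjusted p = 0.0488, named after its value was seen). For age in heat-stressed calves the count of 1 was 0 with RLE, 0 scaled to the 100 IDs, 0 with no low-count filter, 0 with only the compared groups, and from 0 to 1 without each library. The 8 birth libraries whose calf numbers occur in both treatments gave 0 called IDs with the replicate block and 0 without it. Deviations of same-numbered calves correlated from -0.12 to 0.27, and 4 of the 8 libraries correlated best with their own number. With so few shared numbers this check cannot settle whether the calves were paired. The numbers were not taken as pairs. With lowest counts of 616 and more, counting error made up a median of 8.68% and at most 26.6% of the variance of the 100 IDs. Each group held 6 calves, and what limits the comparisons was not tested.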
